A study of Rattus norvegicus with 10 samples.

Results

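The genes described are those of cholesterol synthesis and of its feedback regulator Insig1 in rat gastrocnemius muscle under mild calorie restriction (CR). Of 8 genes named (Hmgcs1, Idi1, Fdps, Fdft1, Sqle, Cyp51, Dhcr7 and Insig1), 7 were paired by the platform annotation with at least 1 probe set of their own, which gave 10 probe sets among 31099 on the array. Hmgcs1, which makes the precursor of mevalonate, was paired with none and was not analysed here. Idi1, Fdft1 and Cyp51 had 2 probe sets each, and the brightest was used for each gene unless stated.

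Male Wistar rats, 6 weeks old at the start, received individually an AIN-93G diet reduced by 5%, 10%, 20% or 30% or an unreduced control diet, for 1 month or for 1 week. Muscle was taken after a fast of 16 h, which all groups including the controls underwent. RNA of the 5 rats of a group was pooled and measured on 1 array, so 8 restricted and 2 control arrays were available and no group had a replicate. Groups follow the array titles. For the 1-week control array and the 1-week 5% CR array, a further line of description contradicts the title on feeding, so the tested estimates were refitted with this pair exchanged. The exchange turns the sign of every 1-week ratio at 5% CR and changes the denominator of the other 1-week ratios, so each reading of 1-week signals against their control below depends on the titles.

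Cholesterol is built in the cytosol and endoplasmic reticulum by a chain of enzymes that first joins acetyl units into isoprenoids, then condenses these into squalene, and then closes and trims the sterol rings. The sterol regulatory element-binding proteins (SREBPs) switch on most of these genes together when the sterol content of the membrane is low. Insig1 holds the SREBP precursor in the endoplasmic reticulum when sterols are plentiful and is itself an SREBP target. In muscle the same chain also supplies isoprenoids for ubiquinone, dolichol and the lipid anchors of signalling proteins.

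The promoter windows, 250 bases before to 50 bases after the annotated start, were read from RefSeq for 6 of the 8 genes. No window was available for Fdft1 and Sqle. The windows of Idi1, Fdps and Insig1 are shown, among the 4 that hold a box of the SREBP partner NF-Y, CCAAT. The box was read on either strand and is printed in capitals. The Hmgcs1 window also holds such boxes and is not printed. They lie at chr17:66547475-66547774 (Idi1, minus strand), chr2:176804767-176805066 (Fdps, minus strand) and chr4:8057720-8058019 (Insig1, minus strand) of GRCr8.
Idi1: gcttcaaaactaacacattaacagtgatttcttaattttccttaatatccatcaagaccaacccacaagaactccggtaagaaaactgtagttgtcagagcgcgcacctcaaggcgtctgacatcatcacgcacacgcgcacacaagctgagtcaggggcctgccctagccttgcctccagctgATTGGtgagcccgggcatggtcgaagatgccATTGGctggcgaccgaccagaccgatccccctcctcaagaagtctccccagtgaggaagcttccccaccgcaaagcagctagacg
Fdps: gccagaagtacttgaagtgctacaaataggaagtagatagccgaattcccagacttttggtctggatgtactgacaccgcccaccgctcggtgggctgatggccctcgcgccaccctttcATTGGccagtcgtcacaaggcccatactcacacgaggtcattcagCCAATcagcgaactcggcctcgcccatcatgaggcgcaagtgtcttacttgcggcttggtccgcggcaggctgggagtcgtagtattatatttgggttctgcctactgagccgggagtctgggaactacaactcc
Insig1: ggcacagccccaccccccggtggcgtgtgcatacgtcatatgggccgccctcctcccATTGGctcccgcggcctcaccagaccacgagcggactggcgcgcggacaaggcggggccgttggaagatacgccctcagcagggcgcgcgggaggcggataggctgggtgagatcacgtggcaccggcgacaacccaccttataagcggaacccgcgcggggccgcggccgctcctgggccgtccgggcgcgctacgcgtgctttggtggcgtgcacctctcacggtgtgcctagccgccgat
The NF-Y box was present in 4 of the 6 windows, those of Hmgcs1, Idi1, Fdps and Insig1, and in 37.5% of all 33469 windows of this length. Idi1 and Fdps held 2 such boxes each and Insig1 held 1, while the Cyp51 and Dhcr7 windows held none. The box GGGCGG, bound by Sp1, was present on either strand in 5 of the 6 windows and in 33.1% of all windows. No window of the 6 held the sterol regulatory element written as TCACNCCAC on either strand, found in 1.12% of all windows, which says only that these letters are not in this stretch. None of these motifs contains another, and a match is a description of sequence.

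The values were MAS5 signals on a linear scale, and log2 ratios set a restricted array over the control of equal duration. The trimmed mean signal was 86.4 on each 1-month array and 99.6 on each 1-week array. The summed signal of 10 slow fibre markers was 0.764 to 0.975 of the control on the restricted 1-month arrays and 1.46 to 2.35 of the control on the restricted 1-week arrays. That of the 9 measured fast fibre markers was 0.646 to 0.831 and 1.05 to 1.09 of the control. For the 9 macrophage markers, of which Adgre1 was below the level of testing, it was 1.15 to 1.95 and 1.19 to 1.27. For 7 adipocyte markers it was 1.18 to 1.26 and 1.12 to 1.45, with Plin1, Cidec and Lep below the level of testing. For 4 Schwann cell and nerve markers it was 1.22 to 1.46 and 1.11 to 1.22, and for 8 fibroblast markers 0.958 to 1.30 and 1.09 to 1.12. It was 0.776 to 0.995 and 0.809 to 1.25 for 5 endothelial markers. For 6 smooth muscle and pericyte markers, with Cnn1 below the level of testing, it was 0.896 to 0.980 and 0.961 to 1.03. Bright genes weigh most in such sums. Fabp4 led the adipocyte sum (mean signal 761.1, next Cfd at 82.4), and Mb the slow fibre sum (7533.6, next Myl2 at 1713.9). All 5 measured hepatocyte markers were below that level. The actin 3' to 5' ratio was 1.37 to 1.61 against 1.44 at 1 month, and 1.24 to 1.56 against 1.70 at 1 week. The part of these differences in the results below was not tested, and in bulk tissue fewer cells of a type cannot be told apart from less RNA per cell.

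How the sterol genes compare between restricted and control muscle was asked first by reading each gene on each array. Isomerase Idi1, which converts the first isoprenoid unit into its reactive partner, gave the widest gap at 1 week among the genes above the level of testing. At 1 month its signal was 74.8 on the control array and 72.1, 61.0, 61.0 and 58.6 at 5%, 10%, 20% and 30% CR. At 1 week it was 128.5 on the control array and 66.1, 75.4, 71.1 and 73.2 at the same levels. All 8 restricted arrays thus lay below their control, by 0.05 to 0.35 log2 at 1 month and by 0.77 to 0.96 log2 at 1 week, and the 1-week control stood alone above the other 9 arrays. The other Idi1 probe set gave 30.9 to 38.5 on the restricted arrays and 43.3 on the control at 1 month, and 35.6 to 40.2 on the restricted arrays and 75.4 on the control at 1 week. Both probe sets therefore placed every restricted array under its control, with the deeper step at 1 week. With the 1-week control and 5% CR arrays exchanged, the 1-week ratios of the brightest probe set lay above 0 instead, at 0.11 to 0.96.

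Fdps makes farnesyl diphosphate, from which the routes to sterols, ubiquinone and protein anchors part. Its 1-month signals were 345.7 on the control array and 337.8, 356.0, 370.2 and 342.8 at 5%, 10%, 20% and 30% CR. Its 1-week signals were 509.1 on the control array and 409.6, 405.2, 432.5 and 398.9 at these levels. Restricted and control arrays overlapped at 1 month, and at 1 week the 4 restricted arrays lay close together beneath the control, at log2 ratios of −0.35 to −0.24.

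Fdft1, squalene synthase, commits farnesyl diphosphate to sterols and was the exception in direction. At 1 month it gave 182.0 on the control array and 228.9, 236.0, 227.3 and 221.9 at 5%, 10%, 20% and 30% CR. At 1 week it gave 163.1 on the control array and 203.0, 229.1, 259.3 and 238.1 at these levels. Every restricted array lay above its control, with log2 ratios of 0.29 to 0.37 at 1 month and 0.32 to 0.67 at 1 week. On its other probe set the restricted 1-month arrays read 190.2 to 223.7 and the control 151.5. At 1 week that probe set read 162.5 on the control array and 157.9, 163.1, 240.2 and 245.1 at 5%, 10%, 20% and 30% CR, so the lower levels matched the control and the higher levels stood above it.

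**Figure D1:**
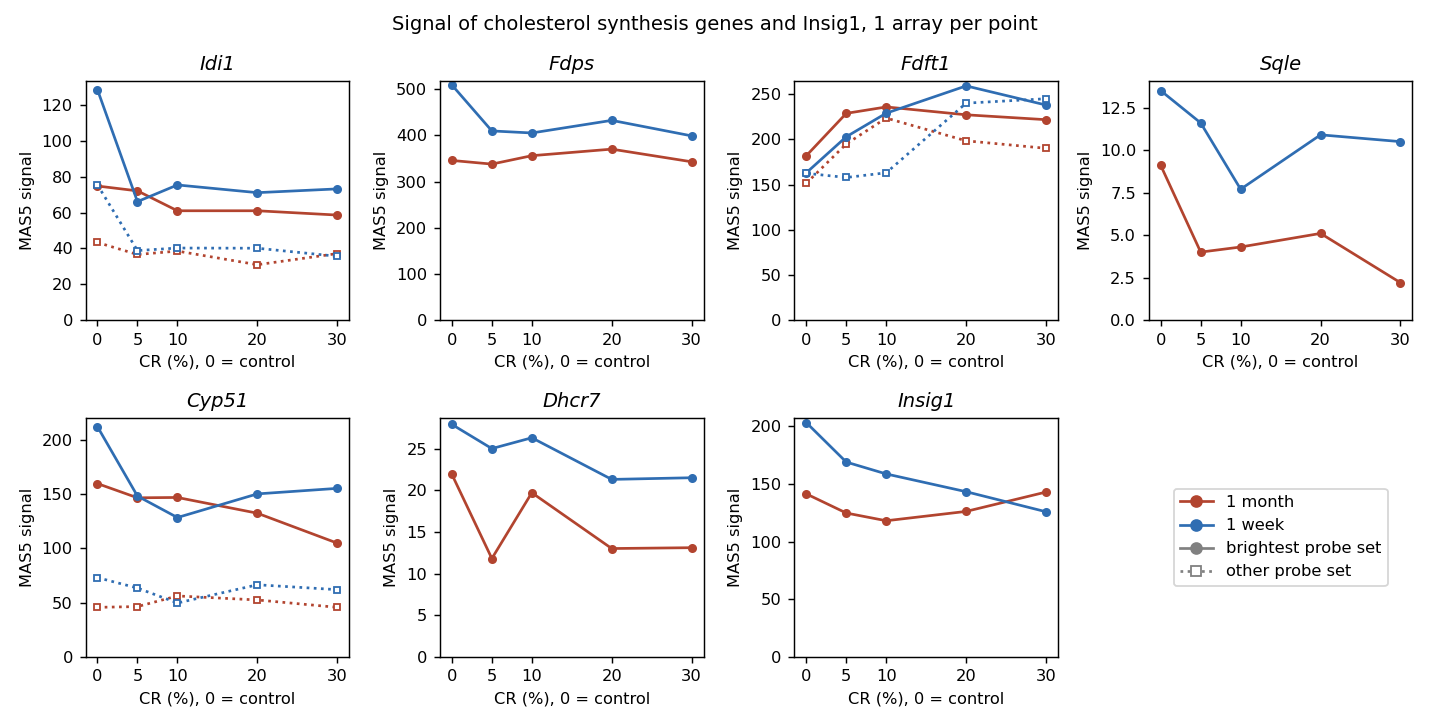
MAS5 signal (vertical axis, linear, from 0) against the level of CR in percent with the control at 0 (horizontal axis) for 7 genes, 1 panel per gene, with lines for 1 month and 1 week and 1 array per point. Dotted lines with open squares show the other probe set of Idi1, Fdft1 and Cyp51. The 1-week control of Idi1 at 128.5 stands above its other 9 arrays, whereas both Fdft1 controls, 182.0 and 163.1, lie beneath their restricted arrays.

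Sqle, squalene epoxidase, carries out the first oxygen-requiring step and is a control point of the pathway. It was dim throughout, with 9.1 on the 1-month control array and 4.0, 4.3, 5.1 and 2.2 at 5%, 10%, 20% and 30% CR, and with 13.5 on the 1-week control array and 11.6, 7.7, 10.9 and 10.5 at these levels. All 8 restricted arrays read under their control, but the mean signal was beneath the 17.84 needed for testing, and the table holds no detection calls. Log2 ratios of −2.05 to −0.84 at 1 month and −0.81 to −0.22 at 1 week are therefore given as values alone.

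Cyp51, which removes a methyl group from lanosterol, read 159.7 on the 1-month control array and 146.6, 146.9, 132.4 and 104.8 at 5%, 10%, 20% and 30% CR. At 1 week it read 212.1 on the control array and 148.2, 128.4, 150.2 and 155.3 at these levels. The order differed between durations, with the lowest signal at 30% CR after 1 month and at 10% CR after 1 week. This probe set is of a class whose probes can match more than 1 transcript. The other Cyp51 probe set gave 45.6 on the 1-month control array and 46.3, 56.1, 52.4 and 45.6 with restriction, none of them lower, and 73.0 on the 1-week control array and 63.4, 49.6, 66.4 and 61.9 with restriction. The probe sets of Cyp51 thus disagreed in direction at 1 month.

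Dhcr7, the reductase of the last step to cholesterol, gave low signals whose mean over the arrays just passed the level of testing, while 3 of the 4 restricted 1-month arrays read beneath it. They were 21.9 on the 1-month control array and 11.8, 19.7, 13.0 and 13.1 at 5%, 10%, 20% and 30% CR, and 27.9 on the 1-week control array and 25.0, 26.3, 21.3 and 21.5 at these levels. Every restricted array read under its control, at log2 ratios of −0.89 to −0.15 at 1 month and −0.39 to −0.09 at 1 week, with no steady order by level at 1 month.

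Insig1 was the only gene of the 7 whose 1-week signal was lower at each higher level of restriction, with 203.1 on the control array and 168.9, 158.6, 143.2 and 125.8 at 5%, 10%, 20% and 30% CR. At 1 month it gave 141.3 on the control array and 124.7, 118.0, 126.1 and 142.9 at these levels. The 30% CR array was thus the lowest of the 1-week series and the highest of the 1-month series.

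**Figure D2:**
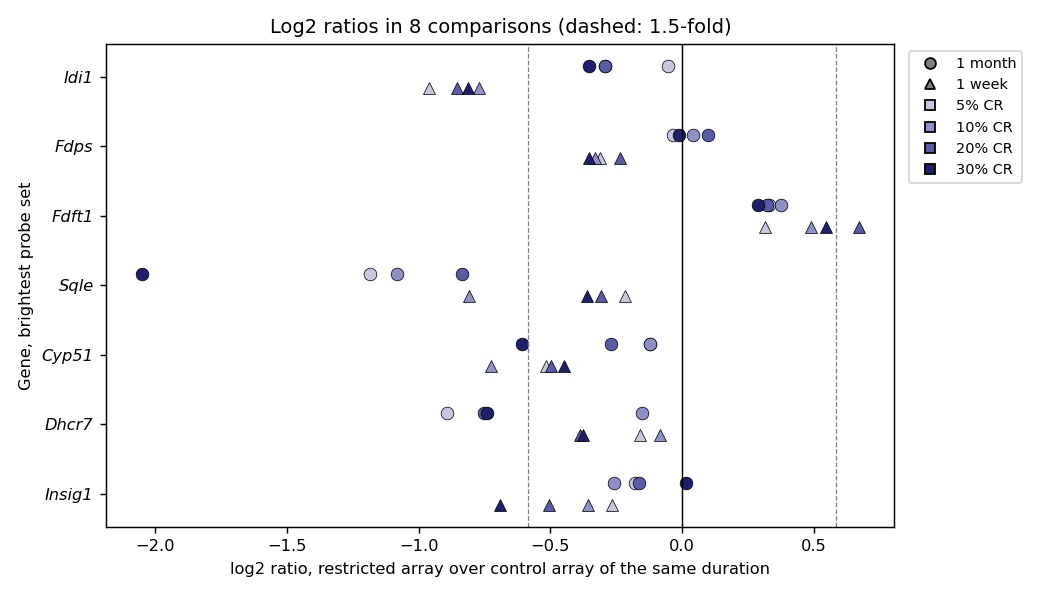
Log2 ratio of restricted over control signal within a duration (horizontal axis) for the brightest probe set of 7 genes (vertical axis), with circles for 1 month, triangles for 1 week, darker fill for stronger CR and dashed lines at 1.5-fold. Idi1 at 1 week lies between −0.96 and −0.77, and Fdft1 lies to the right of 0 in all 8 comparisons.

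Across the 7 genes, 4 read below control in all 8 comparisons (Idi1, Sqle, Cyp51 and Dhcr7) and 1 above it in all 8 (Fdft1), where 8.36% and 8.2% of the 15521 probe sets tested did so. At 1 month the same 4 genes were below control at every level, against 28.1% of probe sets tested. At 1 week 6 genes were, the same 4 with Fdps and Insig1, against 22% of probe sets tested. With the 1-week control and 5% CR arrays exchanged, 0 of the 7 genes were below control in all 8 comparisons (6.75% of probe sets tested) and 0 above it in all 8 (5.56%). At 1 week 0 were then below control at every level (20.6%) and only Idi1 was above it at every level (17.7%), and the mean 1-week ratio of Cyp51 was 0.10, that of Fdft1 0.11 and that of Insig1 −0.12. The comparisons of a duration share 1 control array, so agreement among their levels is not independent. The 7 genes were chosen with earlier results of these data known, and Sqle is not among the 15521 probe sets tested. The counts beside these shares are therefore descriptions and no test. Of all 56 ratios 45 lay below 0, and 33 did with the 1-week control and 5% CR arrays exchanged. The 45 include all 8 of the dim Sqle. Over all probe sets tested the median log2 ratio ran from −0.0158 (1-month 30% CR) to 0.0169 (1-week 5% CR). A ratio at least 1.5-fold lower was read at 1 month for 2, 1, 2 and 3 of the 7 genes at 5%, 10%, 20% and 30% CR, where 6.29%, 7.06%, 5.39% and 6.3% of probe sets tested were that low. At 1 week the numbers were 1, 3, 1 and 2 of 7, against 3.6%, 4.07%, 5.09% and 6.65%. Sqle gave 4 of the 8 at 1 month and 1 of the 7 at 1 week. Dhcr7 gave 3 of the 8 at 1 month, on arrays that read beneath the level of testing. Cyp51 gave the remaining 1, at 30% CR, where its other probe set equalled its control.

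Whether restriction as such moved these genes was then tested with limma over all 10 arrays, with the 8 restricted arrays set against the 2 control arrays and duration in the model. Fdft1 rose 1.33-fold (log2 0.42 ± 0.09, SE over 10 arrays, 95% interval 0.21 to 0.62, adjusted p = 0.0354), and 0 of the 5 other genes tested passed. Of all 15521 probe sets, 2% were called in this comparison, as 1.13% rose and 0.876% fell. The Fdft1 rise was lost without any of 7 of the 10 arrays (adjusted p = 0.323 with the 1-week control omitted, 0.115 with the 1-month control omitted and 0.0526 to 0.0602 without the 1-week 20% or 30% or the 1-month 5%, 10% or 20% array), and the log2 estimate was 0.22 (adjusted p = 0.608) with the 1-week control and 5% CR arrays exchanged. On its other probe set the estimate was 0.35 ± 0.15 (adjusted p = 0.309).

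The 5 other genes had estimates below 0. Idi1 was at −0.55 ± 0.15 (adjusted p = 0.0695), 1.46-fold lower in restricted muscle, with an interval of −0.86 to −0.24, and its other probe set was at −0.62 ± 0.18 (adjusted p = 0.0977). For Cyp51 the brightest probe set gave −0.41 ± 0.13 (adjusted p = 0.127) and the other gave −0.08 ± 0.16 (adjusted p = 0.881). Dhcr7 was at −0.44 ± 0.26 (adjusted p = 0.470), Insig1 at −0.30 ± 0.12 (adjusted p = 0.264) and Fdps at −0.14 ± 0.08 (adjusted p = 0.474). The median over the 6 genes tested was −0.36, and that over all probe sets tested was −0.01, of which 51.7% had an estimate below 0. The Idi1 estimate was −0.25 (adjusted p = 0.642) with the 1-week control left out, −0.85 (adjusted p = 0.0472) with the 1-month control left out, and 0.05 (adjusted p = 0.949) with the 1-week arrays exchanged. That of Cyp51 was −0.28 (adjusted p = 0.590) without the 1-week control and −0.09 (adjusted p = 0.879) with the exchange.

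**Figure D3:**
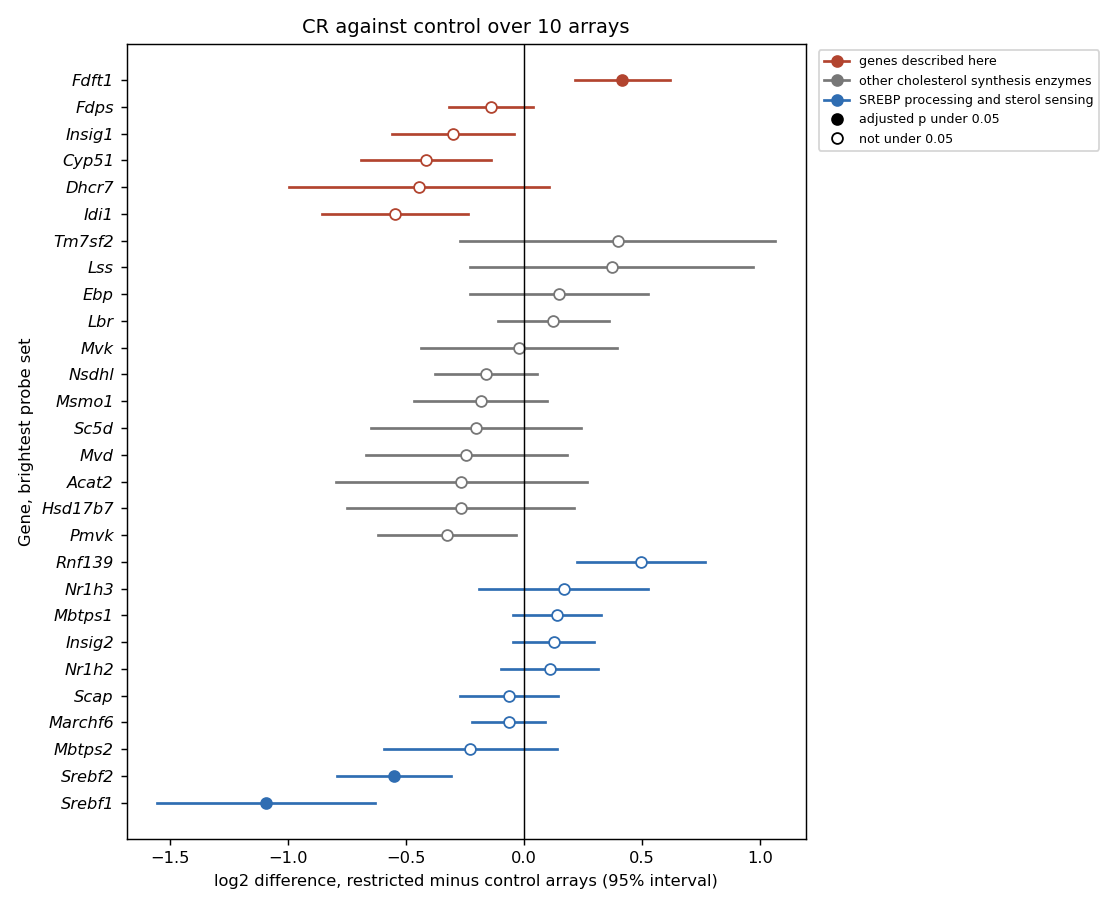
Log2 difference of restricted minus control arrays with its 95% interval (horizontal axis) from the fit over 10 arrays, for the genes described here, other cholesterol synthesis enzymes and genes of SREBP processing and sterol sensing (vertical axis). Filled points mark an adjusted p under 0.05, which Fdft1 (0.42), Srebf2 (−0.55) and Srebf1 (−1.09) reached.

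With a slope over all 10 arrays, per 10 percentage points of CR, 0 of the 6 genes passed in limma, where 2% of all probe sets tested did. The slope was 0.11 ± 0.04 for Fdft1 (adjusted p = 0.236) and −0.14 ± 0.05 for Cyp51 (adjusted p = 0.229), and the unadjusted p was 0.0211 and 0.0197. The other Fdft1 probe set had a slope of 0.16 ± 0.05 (adjusted p = 0.154) and the other Cyp51 probe set one of −0.01 ± 0.06 (adjusted p = 0.952). Slopes of Idi1 (−0.14 ± 0.07, adjusted p = 0.343), Dhcr7 (−0.15 ± 0.10, adjusted p = 0.516), Insig1 (−0.09 ± 0.05, adjusted p = 0.408) and Fdps (−0.03 ± 0.03, adjusted p = 0.734) lay nearer to their errors. For Insig1 the slope was −0.21 (adjusted p = 0.122) over the 1-week arrays alone and 0.02 (adjusted p = 0.944) over the 1-month arrays alone.

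Restriction for 1 month and for 1 week was compared by the difference between the restricted-minus-control contrasts. Mean log2 ratios at 1 month and at 1 week were −0.25 and −0.85 for Idi1, 0.02 and −0.31 for Fdps, −0.28 and −0.55 for Cyp51 and −0.15 and −0.45 for Insig1. They were −0.63 and −0.25 for Dhcr7, and 0.33 and 0.51 for Fdft1. The difference, 1 month minus 1 week, was 0.60 ± 0.25 for Idi1 (interval 0.06 to 1.14, adjusted p = 0.644) and 0.33 ± 0.15 for Fdps (interval 0.02 to 0.64, adjusted p = 0.672), with unadjusted p of 0.0316 and 0.0395. No gene of the 6 passed in limma, where 0% of all probe sets tested did, and 1121 of them had an unadjusted p under 0.05. The Idi1 difference was −0.60 with the 1-week control and 5% CR arrays exchanged. A difference between durations in the response of these genes was thus not shown, and each duration rests on 1 control array.

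**Figure D4:**
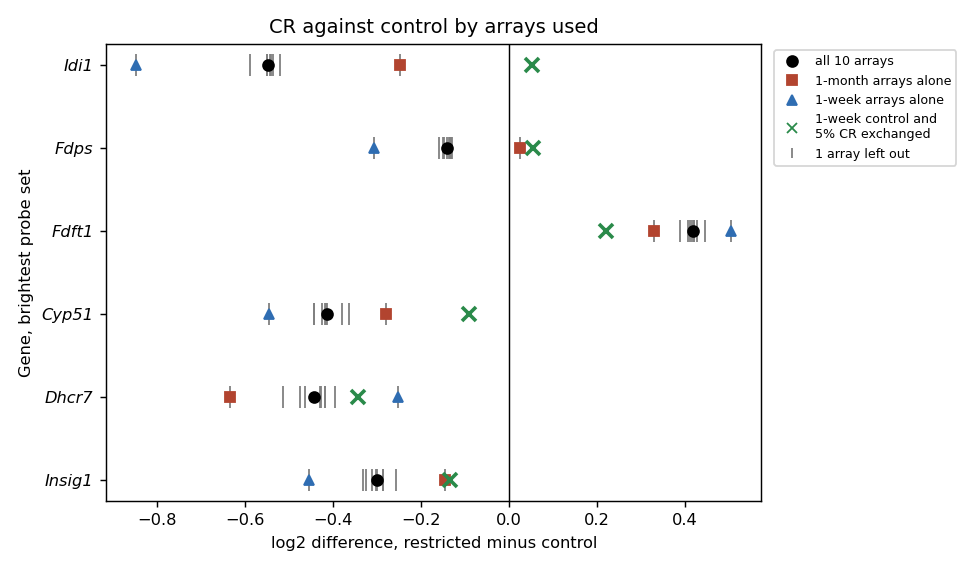
Log2 difference of restricted minus control arrays (horizontal axis) for the 6 genes tested (vertical axis), over all 10 arrays, over the arrays of 1 month or 1 week alone, with 1 array left out, and with the 1-week control and 5% CR arrays exchanged. Idi1 lies at −0.55 over all arrays, −0.25 at 1 month, −0.85 at 1 week and 0.05 after the exchange, whereas Fdft1 stays above 0 in each.

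Muscle after 1 month was also set against muscle after 1 week, with the level of restriction in the model. All rats started at 6 weeks of age, so those of 1 month were older when muscle was taken. Age, time on the diet and the scale of the arrays cannot be told apart in this comparison. Over all probe sets tested the median was −0.21, on arrays whose trimmed mean was lower. Of these probe sets 33.9% were called, 32.8% were called lower and 84.7% had an estimate below 0. Fdps (−0.29 ± 0.07, adjusted p = 0.00648) and Dhcr7 (−0.66 ± 0.21, adjusted p = 0.0262) were lower at 1 month on this scale, and 4 of the 6 genes did not pass. With median centring these became −0.0001 (adjusted p = 0.9998) for Fdps and −0.36 (adjusted p = 0.328) for Dhcr7, so neither call held once the arrays were brought to a common median. The Dhcr7 call was also lost without any of 4 restricted arrays (1-month 5% or 20%, 1-week 10% or 30%, adjusted p = 0.0506 to 0.0700). Fdft1 was at 0.02 ± 0.10 (adjusted p = 0.907), above the median shift, but did not pass with median centring either (0.31, adjusted p = 0.0923).

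After subtraction of each duration's mean, the brightest probe sets of the 6 genes other than Fdft1 gave a Pearson r of 0.14 to 0.79 over 10 arrays (15 pairs, median 0.45). The closest pairs were Idi1 with Cyp51 (0.79), Sqle with Cyp51 (0.77) and Idi1 with Fdps (0.74), and the most distant were Sqle with Insig1 (0.14), Fdps with Dhcr7 (0.22) and Cyp51 with Insig1 (0.29). Fdft1 had negative r to all 6, at −0.84 to −0.51, but its other probe set had r of −0.16 to Cyp51, −0.17 to Fdps and −0.81 to Insig1. These are descriptions over 10 arrays that share 2 controls. The paired probe sets gave r of 0.91 for Idi1, 0.78 for Fdft1 and 0.60 for Cyp51.

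Among 12499 tested single-gene probe sets of other genes, the profiles most like those of the members were found by the same measure. For Fdft1 they were Stk35, Gadd45b and Idh1 (r of 0.99, 0.98 and 0.97), for Insig1 Gpat4, Lrif1 and Smim8 (0.97, 0.95 and 0.94), and for Idi1 Gorasp2, Prr13 and Sh2b1 (0.95, 0.94 and 0.93). Cyp51 was closest to Fam120a, Cct5 and Tatdn3 (0.96, 0.95 and 0.95), Fdps to Ahi1, Dcaf17 and Psme2 (0.94, 0.93 and 0.90), and Dhcr7 to Smap2, Crem and C2cd2 (0.92 each). The dim Sqle was closest to Vcf1, Trak2 and C13h1orf21 (0.98, 0.95 and 0.94). None of these is a cholesterol synthesis enzyme of the lists used here. The search left out the members, and only 12 other enzymes of the pathway had a tested brightest probe set. With so few among 12499 probe sets, their absence from the closest profiles cannot decide whether the genes are regulated together. Each r is also among the highest of 12499 values, so these profiles are given as descriptions.

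The other enzymes of the pathway were read from a list of 14, of which 12 were tested on their brightest probe set. For CR against control 0 of 12 passed in limma, with 8 estimates below 0 and 4 above, a median of −0.17 and a range of −0.33 to 0.40. Of all probe sets tested 2% were called and 51.7% had an estimate below 0. Mvd, which decarboxylates mevalonate diphosphate, was at −0.24 ± 0.20 (adjusted p = 0.633), and Msmo1, which oxidizes methyl groups of the sterol ring, at −0.18 ± 0.13 (adjusted p = 0.579). Hsd17b7 and Nsdhl, which act with Msmo1 in removing these groups, were at −0.27 ± 0.23 (adjusted p = 0.648) and −0.16 ± 0.10 (adjusted p = 0.511). These 4 enzymes are named for their calls between 1 month and 1 week, and none of the 4 with an estimate above 0 is among them. Msmo1 read 63.2 on the 1-month control array and 62.4, 58.7, 66.3 and 65.0 at 5%, 10%, 20% and 30% CR, and 106.8 on the 1-week control array and 77.4, 74.7, 93.3 and 88.0 at these levels, so that it overlapped its control at 1 month and lay beneath it at 1 week, as Fdps did. No other enzyme of this list was read array by array. Over the 12 enzymes the median log2 ratio at 5%, 10%, 20% and 30% CR was −0.06, −0.18, −0.06 and −0.01 at 1 month. At 1 week it was 0.11, −0.07, −0.15 and −0.21. For the dose slope 0 of 12 passed, where 2% of all probe sets tested did. For 1 month against 1 week 6 of 12 were lower and 0 higher at the deposited scale, where 32.8% of all probe sets tested were called lower. Among the 6 were Hsd17b7 (−0.71), Msmo1 (−0.47), Nsdhl (−0.46) and Mvd (−0.43), and with median centring 0 of these 4 passed. The other Nsdhl probe set was at −0.12 (adjusted p = 0.521).

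Genes of the isoprenoid branches, which lead to ubiquinone, dolichol and protein prenylation, gave 0 of 9 calls for CR against control, with a median of −0.05. Of all probe sets tested 2% were called there. At 1 month against 1 week 2 of 9 were lower on the deposited scale, where 32.8% of all probe sets tested were called lower. They were Srd5a3 (−0.43 ± 0.11, adjusted p = 0.00717) and Nus1 (−0.21 ± 0.07, adjusted p = 0.0288), which act in dolichol synthesis. Other Nus1 probe sets were at −0.25 (adjusted p = 0.0210) and 0.04 (adjusted p = 0.835). Of the 10 tested regulators of SREBP processing and sterol sensing, 2 fell with CR, where 0.876% of all probe sets tested did. Srebf1, the SREBP gene tied mainly to fatty acid synthesis, fell 2.13-fold (log2 −1.09 ± 0.22, adjusted p = 0.0166) and Srebf2, the SREBP gene tied mainly to cholesterol synthesis, fell 1.46-fold (−0.55 ± 0.11, adjusted p = 0.0207), while 8 of the 10 did not pass. Srebf2 read 126.0 on the 1-month control array and 86.1, 85.6, 77.6 and 90.7 at 5%, 10%, 20% and 30% CR, and 173.9 on the 1-week control array and 131.5, 124.4, 125.0 and 102.7 at these levels. All 8 restricted arrays lay below their control, with mean log2 ratios of −0.57 at 1 month and −0.53 at 1 week. Srebf1 read 798.8 on the 1-month control array and 346.1, 344.3, 294.2 and 315.7 with restriction, and 549.8 on the 1-week control array and 484.0, 316.6, 256.8 and 198.8 with restriction. It was lower at each higher level after 1 week, whereas after 1 month the 4 restricted arrays lay close together far below the control. The other Srebf1 probe set gave −1.05 ± 0.19 (adjusted p = 0.0110).

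Neither fall was called once the 1-week control was left out (adjusted p = 0.0988 for Srebf1 and 0.164 for Srebf2), nor once the 1-month control was (0.269 and 0.195), nor with the 1-week arrays exchanged (0.367 and 0.580). With the dose slope Srebf1 fell by 0.42 ± 0.08 log2 per 10 percentage points (adjusted p = 0.0115) and Rnf139, a ubiquitin ligase of the endoplasmic reticulum that binds the SREBP machinery, rose by 0.20 ± 0.04 (adjusted p = 0.0345). Rnf139 gave 319.4 on the 1-month control array and 494.9, 527.5, 462.3 and 573.2 with restriction, and 357.4 on the 1-week control array and 358.1, 424.8, 475.0 and 531.5 with restriction, so its highest signal was at 30% CR in both series. The Rnf139 slope was lost when any of 6 of the 10 arrays was left out (both controls, the 1-month 30% and the 1-week 5%, 20% and 30% CR arrays, adjusted p = 0.0639 to 0.154) and after the exchange (0.0525). It passed under 9 of 22 alternatives, and was also lost with median centring (0.0878), without a filter (0.0550), without the variance trend (0.131), over 1 week (0.0614) or 1 month (0.499) alone and over the restricted arrays alone (0.292). The Srebf1 slope was lost without the 1-week control (0.0568) or the 1-week 30% CR array (0.0842), without the variance trend (0.0900), over 1 month alone (0.460) and over the restricted arrays alone (0.173), and gave an adjusted p of 0.0512 on its other probe set. For 1 month against 1 week 2 of the 10 regulators were lower on the deposited scale, where 32.8% of all probe sets tested were called lower. They were Srebf2 (−0.50 ± 0.12, adjusted p = 0.00543) and Marchf6, a ubiquitin ligase of the endoplasmic reticulum (−0.16 ± 0.05, adjusted p = 0.0287). The other Marchf6 probe set was at −0.32 (adjusted p = 0.113).

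Fatty acid genes that SREBPs also switch on gave 0 of 7 calls for CR against control, with 5 estimates below 0, 2 above and a median of −0.20. Of all probe sets tested 2% were called and 51.7% had an estimate below 0. Fads1, a fatty acid desaturase, was at −0.64 ± 0.17 (adjusted p = 0.0758) and Fasn, the fatty acid synthase, at −0.63 ± 0.22 (adjusted p = 0.178). Gpam, which starts glycerolipid synthesis, was at 0.47 ± 0.13 (adjusted p = 0.0736) and Scd, another desaturase, at 0.85 ± 0.46 (adjusted p = 0.426). On the deposited scale 6 of 7 were lower at 1 month than at 1 week, where 32.8% of all probe sets tested were called lower. Among them were Fasn (−0.79 ± 0.21, adjusted p = 0.0109), Gpam (−0.61 ± 0.13, adjusted p = 0.00359), Fads1 (−0.55 ± 0.14, adjusted p = 0.00783) and Acaca, which makes malonyl-CoA (−0.55 ± 0.10, adjusted p = 0.00124). The other probe set was at −0.72 for Gpam (adjusted p = 0.000286) and at −0.31 for Acaca (adjusted p = 0.255).

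Genes of sterol efflux, storage and transport gave 0 of 11 calls for CR against control, with 7 estimates above 0, 4 below and a median of 0.09. Of all probe sets tested 2% were called and 51.7% had an estimate below 0. At 1 month 3 of 11 were lower than at 1 week on the deposited scale, where 32.8% of all probe sets tested were called lower. They were the lipoprotein receptors Lrp1 (−0.61 ± 0.11, adjusted p = 0.00098) and Scarb1 (−0.48 ± 0.17, adjusted p = 0.0380) and the cholesterol ester hydrolase Nceh1 (−0.42 ± 0.10, adjusted p = 0.00611). The other Scarb1 probe set was at −0.61 (adjusted p = 0.0470). With median centring none of the genes named here from the branch, regulator, fatty acid and transport lists passed on its brightest probe set for 1 month against 1 week (adjusted p = 0.110 for Lrp1, the smallest, to 0.619 for Nus1).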

How the data were processed

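RNA from gastrocnemius muscle, pooled from 5 rats per group, was measured on Affymetrix rat expression arrays, 1 per group. The authors deposited linear signal intensities made with MAS5, per the labels. The arrays of a duration shared 1 trimmed mean signal, 86.4 at 1 month and 99.6 at 1 week. The scale of the arrays thus differed with duration and cannot be told apart from it. The table holds no detection or change calls, so the change calls of the study's methods could not be made, and the number of arrays limits the precision.

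Signals under 0.1 were set to 0.1 and converted to log2. The 57 control probe sets were left out, and the 15521 probe sets with a mean log2 signal at or above the 50th percentile (a mean signal of 17.84) were tested. Of 31099 probe sets, 20832 carried 1 gene, 436 several and 9831 none in the platform annotation, and 20764 were matched to RefSeq (GRCr8) by gene identifier. Promoter windows came from RefSeq, GRCr8.

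limma 3.58.1 in R 4.3.3 (lmFit, eBayes with trend) was fitted on all 10 arrays, and p-values were adjusted by Benjamini-Hochberg over all probe sets tested, at 0.05. Fits were restricted against control and the dose slope, both with duration as a factor, 1 month against 1 week with the level as a covariate, and the difference of the restricted-minus-control contrasts. Residual degrees of freedom were 7, 7, 7 and 6. The residual spread comes from the model and not from replicates, and p-values measure only that spread. The scripts were tested on simulated data.

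Members and lists were chosen with earlier results of these data known. All members were named along with up to 4 genes per other list and fit that passed, in order of size, and the 3 genes with the most similar profile to each member. Scd was named after its values were seen, as the gene with the highest estimate of its list. Alternatives were median centring or quantile normalization, a filter at the 70th percentile or none, an offset of 32 before log2, no variance trend, averaged probe sets, other sets of arrays, the exchange above, and omission of single arrays.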

Additional observations from a re-analysis of the deposited data

Results flagged for a closer look

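Results were examined for opposite directions at 1 month and 1 week. In 3 genes of sterol efflux, storage and transport every restricted array moved one way at 1 month and the other way at 1 week. Stard3, a late endosomal sterol carrier, had log2 ratios of −0.23 to −0.06 at 1 month and 0.33 to 0.34 at 1 week, a mean difference of −0.51. Nceh1, a cholesterol ester hydrolase, had −0.36 to −0.08 and 0.09 to 0.36, a difference of −0.41. Npc2, a lysosomal sterol carrier, had 0.01 to 0.14 and −0.33 to −0.12, a difference of 0.29. In limma the difference between durations did not pass for any of them (adjusted p = 0.553, 0.784 and 0.752). With the 1-week control and 5% CR arrays exchanged, the 5% ratio at 1 week changes sign, so the 1-week arrays no longer all lie on the side given. The genes were picked out by their ratios, and each duration has 1 control array. The search covered the 7 genes described and the 12, 9, 10, 7 and 11 tested genes of the other lists. The share of all probe sets tested with such opposite directions was not computed. Below control at every level were 28.1% of them at 1 month and 22% at 1 week. The 3 genes are therefore given as values, not as a trait of sterol transport.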

How the results depend on the processing

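Each group had 1 array, so no replicates could be paired. With the durations paired by level as a block, 4865 probe sets were called for 1 month against 1 week and the calls of Mvd (adjusted p = 0.0571) and Scarb1 (0.0673) were lost, while those of Fdps (0.0108) and Dhcr7 (0.0370) held. For CR against control, 311 probe sets were called, with 27 to 455 when 1 array was left out (27 and 112 without the control of 1 week or 1 month), 77 without the variance trend, 1 with the 1-week control and 5% CR arrays exchanged, and 34 and 129 over 1 week or 1 month alone. Over the 20% and 30% CR arrays with the controls, 668 were called. For the dose slope, 310 were called, with 86 to 368 when 1 array was left out (86 and 185 without the 1-week 30% or 20% CR array, 117 and 123 without the control of 1 week or 1 month), 196 with median centring, 73 without the variance trend, 161 after the exchange, 109 and 6 over 1 week or 1 month alone and 38 over the restricted arrays alone. For 1 month against 1 week, 5263 were called, with 1575 by quantile normalization (723 higher, 852 lower) and 1365 by median centring (937 higher, 428 lower), where the deposited scale gave 175 higher and 5088 lower. For the difference between durations, 0 were called, with 2 by quantile normalization, 2 with the 70th percentile filter and 0 to 26 when 1 array was left out (26 without the 1-week 10% CR array).

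For CR against control, the exchange turned Idi1 to 0.0510, Fdps to 0.0543 and Msmo1 to 0.107, and Fdps was at 0.0239 over 1 month alone and at −0.308 to 0.0239 when 1 array was left out (0.0239 without the 1-week control). Fdft1 kept its direction under all 21 alternatives and passed under 7; it was also lost with median centring (adjusted p = 0.143), without a filter (0.0505), without the variance trend (0.107) and for the mean of its probe sets (0.118). The other 5 members passed under no alternative, except Idi1 without the 1-month control. The dose slope of Fdps turned to 0.0108 over 1 month alone and to 0.0024 over the restricted arrays, and lay at −0.0402 to 0.0052 when 1 array was left out (0.0052 without the 1-week control), and that of Insig1 turned to 0.0233 over 1 month alone. For 1 month against 1 week, median centring turned Cyp51 (0.0971), Insig1 (0.0157), Nus1 (0.0875) and Marchf6 (0.133), and quantile normalization turned Cyp51 (0.0051) and Marchf6 (0.0434); Fdft1 was at −0.0615 to 0.0787 (−0.0615 without the 1-week control) when 1 array was left out. For the difference between durations, the exchange turned Idi1 (−0.599), Fdps (−0.0607), Fdft1 (0.218), Cyp51 (−0.380) and Insig1 (−0.0251), median centring turned Fdft1 (0.0345), and a difference between dose slopes turned Cyp51 (−0.104). That difference could not be estimated with a control array left out. The cause of these changes was not tested. Of 56 ratios of the 7 genes, 45 were below control, and 33 to 45 under the scalings and the exchange. The median log2 ratio over all probe sets tested was −0.0158 to 0.0169 by comparison.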
